A study of Mus musculus with 15 samples.

Results

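The Hippo pathway ends in a pair of transcriptional coactivators and the DNA-binding factors they work through. Of the 45905 genes in the deposited tables, 10 were taken by name: the coactivators Yap1 and Wwtr1, the DNA-binding factors Tead1 and Tead4, and the target genes Ccn1, Ccn2, Ankrd1, Amotl2, Ajuba and Lats2. All 10 were found in the organoid table and in the gut table. They were measured by poly(A) RNA sequencing in 15 mouse libraries that fall into 5 groups of 3.

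The Tamoxifen organoids carried the code T41, and their titles give a floxed Jup gene (JUPfl/fl) with iVilCre ERT2, a Cre recombinase driven by the villin promoter of intestinal epithelium and switched on by tamoxifen. The DMSO and nativ organoids carried the code T75, and their titles give JUPfl/fl without Cre. The code, the Cre transgene and the treatment therefore changed together between Tamoxifen organoids and the other organoids and cannot be told apart. Organoids are small epithelial structures grown in culture from intestine, and each organoid group held a single code, so p-values measure the spread between these libraries, which may be technical. The gut libraries were described as PG_KO and ctr, each library with its own code. Their titles name DSS colitis and JUPfl/fl for the PG_KO libraries and iVilCre ERT2 with JUPfl/fl for the ctr libraries, which goes against the descriptions. DSS is a salt given in drinking water to injure the colon of mice, and which of the animals received it was not settled from the labels. The labels give no age or sex.

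Yap1 and Wwtr1, whose protein is also called TAZ, have no DNA-binding domain and switch on genes by binding TEAD proteins on chromatin. Upstream kinases, among them Lats2, phosphorylate the coactivators and hold them in the cytoplasm, so much of the pathway's regulation acts on protein location, which RNA levels do not measure. In mouse intestine the pathway is known for its part in epithelial repair after injury. Several of its targets, Amotl2, Ajuba and Lats2 among them, encode proteins that act back on the pathway.

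Library totals ran from 25185053 to 30744563 reads in organoids and from 23194385 to 29257641 reads in gut, so 3 reads correspond to 0.0976 to 0.129 counts per 1000000 reads (CPM). Jup, which encodes the junction protein plakoglobin, stood at 69.0, 70.9 and 71.2 CPM in Tamoxifen organoids, against 360, 378 and 414 CPM in DMSO organoids and 386, 275 and 395 CPM in nativ organoids. In gut it stood at 75.2, 82.8 and 80.3 CPM in PG_KO libraries, against 302, 375 and 495 CPM in ctr libraries. Low Jup therefore followed the descriptions, by which the groups are named here. The 6 epithelial markers summed to 10000 to 10200 CPM in Tamoxifen organoids, 6420 to 7810 CPM in DMSO organoids and 8190 to 8340 CPM in nativ organoids. Markers of smooth muscle summed to at most 1.62 CPM and markers of fibroblasts to at most 1.5 CPM in any organoid library.

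Since the targets were described together, their promoters are shown for the letters GGAATG, the core of the sequence that TEAD proteins bind. RefSeq windows of 300 bases (build GRCm38.p6), from 250 bases before an annotated start to 50 after it, matched 7 of the 10 genes with 9 windows. Such a start need not be the outer end of the gene. Ccn2, Tead1 and Tead4 had no window and were not examined. GGAATG, or CATTCC on the other strand, stood in 8 of these 9 windows, and each of the 7 genes had at least 1 window with it. The window without it belonged to Lats2 and lies inside that gene. In the other Lats2 window the copy began 4 bases downstream of the annotated start. The Wwtr1 windows overlap and hold the same copy. As the genes were chosen as factors and targets of this pathway, the counts are descriptive and enrichment was not tested. The same letters were counted in 32851 windows of that length, with 1 chromosome left out. Of these, 14.7% held GGAATG or CATTCC and 1.36% held 2 or more copies. TGANTCA, the letters bound by AP-1 factors, stood in 0 of the members' windows and in 7.81% of the 32851 windows. Printed below 5′ to 3′ on each gene's own strand, with every copy of GGAATG or CATTCC in capitals, are the windows of Ccn1 (chr3:145649936-145650235, minus strand), Ankrd1 (chr19:36119795-36120094, minus strand), Amotl2 (chr9:102717554-102717853, plus strand) and Ajuba (chr14:54577612-54577911, minus strand).
Ccn1: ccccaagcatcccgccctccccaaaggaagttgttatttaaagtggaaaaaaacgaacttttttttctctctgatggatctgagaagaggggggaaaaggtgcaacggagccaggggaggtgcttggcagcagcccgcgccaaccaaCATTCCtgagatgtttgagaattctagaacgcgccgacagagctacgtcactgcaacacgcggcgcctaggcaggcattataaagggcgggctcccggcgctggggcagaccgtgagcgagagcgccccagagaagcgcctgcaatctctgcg
Ankrd1: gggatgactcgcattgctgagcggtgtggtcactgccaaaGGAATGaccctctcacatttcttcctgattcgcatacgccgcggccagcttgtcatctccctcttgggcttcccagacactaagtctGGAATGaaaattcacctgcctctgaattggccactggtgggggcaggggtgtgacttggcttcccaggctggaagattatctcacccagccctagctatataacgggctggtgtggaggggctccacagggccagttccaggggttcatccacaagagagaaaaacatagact
Amotl2: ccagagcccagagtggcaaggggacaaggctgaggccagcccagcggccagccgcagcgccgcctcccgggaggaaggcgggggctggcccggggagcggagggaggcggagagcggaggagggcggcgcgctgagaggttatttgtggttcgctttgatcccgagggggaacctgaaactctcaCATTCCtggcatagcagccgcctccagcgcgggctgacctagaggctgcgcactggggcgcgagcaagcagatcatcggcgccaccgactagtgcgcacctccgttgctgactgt
Ajuba: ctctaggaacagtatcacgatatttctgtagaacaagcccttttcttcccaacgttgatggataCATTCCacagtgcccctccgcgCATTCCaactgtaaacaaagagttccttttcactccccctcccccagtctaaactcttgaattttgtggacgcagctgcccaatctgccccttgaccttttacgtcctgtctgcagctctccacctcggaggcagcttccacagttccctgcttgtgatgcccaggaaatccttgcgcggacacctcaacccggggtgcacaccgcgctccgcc
Positions are counted from the start on which each window is built. The Ccn1 copy began 103 bases upstream and the Amotl2 copy 65 bases upstream, each as CATTCC. The Amotl2 window lies inside the gene, which begins at 102717091, so its copy also lies within the gene. Ankrd1 held 2 copies, 210 and 123 bases upstream, and Ajuba held 2 as CATTCC, 186 and 164 bases upstream. The Yap1 window held 1 copy, 141 bases upstream. A match of letters is a description of the window and not a bound site.

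Of the coactivators, Yap1 changed little and Wwtr1 changed much between organoid groups. All gene positions are given on GRCm38.p6 as in the deposited tables, which class the 10 genes as protein-coding. Wwtr1 (chromosome 3, 57455644 to 57575910, minus strand) stood at 11.1, 11.4 and 10.3 CPM in Tamoxifen organoids, against 151, 163 and 151 CPM in DMSO organoids. All Tamoxifen libraries lay far below all DMSO libraries. The log2 change was -3.89 ± 0.10 (SE), a 14.8-fold lower level, with an adjusted p of 3.23e-10 in edgeR's quasi-likelihood test with Benjamini-Hochberg adjustment over all genes tested. An annotated locus on the opposite strand, LOC115489687, overlaps Wwtr1, and without a stated strand setting reads of either strand cannot be told apart.

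Yap1 (chromosome 9, 7931999 to 8004638, minus strand) stood at 114, 110 and 108 CPM in Tamoxifen organoids, against 128, 131 and 144 CPM in DMSO organoids. These groups did not overlap but lay close together. The log2 change was -0.35 ± 0.09 (SE; adjusted p in edgeR, 0.00683). With library totals in place of TMM factors it was -0.28, with an adjusted p of 0.075.

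Dividing CPM by a gene's exon length in kilobases gives RPKM, on which levels of different genes can be set side by side. Wwtr1 averaged 2.29 ± 0.12 RPKM in Tamoxifen organoids and 32.4 ± 1.42 RPKM in DMSO organoids (SD, n = 3 each), while Yap1 averaged 25.0 ± 0.69 RPKM in Tamoxifen organoids and 30.4 ± 1.89 RPKM in DMSO organoids. Yap1 was thus 11.1, 10.4 and 11.3 times the level of Wwtr1 in the Tamoxifen libraries, against 0.918, 0.873 and 1.03 times in the DMSO libraries and 0.885, 0.858 and 0.981 times in the nativ libraries. In gut the ratio was 6.75, 6.77 and 10.2 in PG_KO libraries, against 2.35, 3.58 and 11.1 in ctr libraries. The coactivators stood near parity in the DMSO and nativ organoids, and Yap1 exceeded Wwtr1 in the other 9 libraries.

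**Figure D1:**
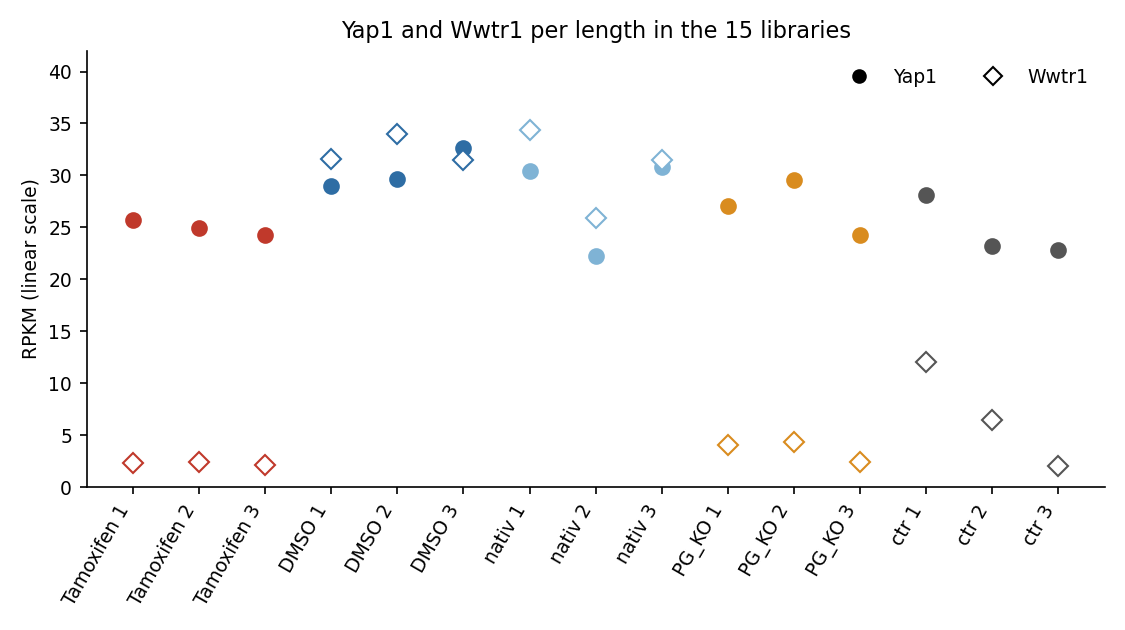
RPKM of Yap1 (filled circles) and Wwtr1 (open diamonds) in each of the 15 libraries, on a linear axis that starts at 0. Yap1 kept between 22.2 and 32.6 RPKM throughout, and Wwtr1 ran from 2.05 RPKM in ctr 3 to 34.4 RPKM in nativ 1.

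The TEAD proteins bind DNA and carry the coactivators. Tead4 (chromosome 6, 128227143 to 128300813, minus strand) stood at 4.08, 4.62 and 5.55 CPM in Tamoxifen organoids, against 36.3, 24.6 and 22.9 CPM in DMSO organoids, and its log2 change was -2.62 ± 0.19 (SE; adjusted p in edgeR, 5.17e-07). Tead1 (chromosome 7, 112679356 to 112906784, plus strand) stood at 51.1, 51.7 and 44.9 CPM in Tamoxifen organoids, against 89.5, 68.2 and 72.3 CPM in DMSO organoids, a log2 change of -0.70 (SE 0.18; adjusted p in edgeR, 0.00529). Neither gene's libraries overlapped between these groups. Per length, Tead1 averaged 4.98 RPKM and Tead4 1.54 RPKM in Tamoxifen organoids, against 7.74 RPKM for Tead1 and 9.08 RPKM for Tead4 in DMSO organoids.

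Among the targets, Ccn2 and Ankrd1 had the largest changes of the 10 genes. Ccn2 (chromosome 10, 24595442 to 24598683, plus strand), a secreted matrix protein long known as CTGF, stood at 3.94, 5.69 and 4.69 CPM in Tamoxifen organoids, against 705, 753 and 669 CPM in DMSO organoids. Every Tamoxifen library lay far below every DMSO library, at a 155-fold lower level and a log2 change of -7.28 ± 0.28 (SE), with an edgeR adjusted p of 4.17e-09. The opposite strand carries Gm15270 over part of the gene, whose reads cannot be told apart without a strand setting.

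Ankrd1 (chromosome 19, 36111965 to 36119844, minus strand) encodes an ankyrin repeat protein best known from heart muscle. It had 24, 16 and 6 reads in Tamoxifen organoids, that is 0.802, 0.52 and 0.215 CPM, against 232, 241 and 201 CPM in DMSO organoids. The groups lay furthest apart here, with a log2 change of -8.82 (SE 0.31; adjusted p in edgeR, 1.96e-09), a 452-fold lower level.

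Ccn1 (chromosome 3, 145646971 to 145649985, minus strand), the secreted matrix protein known as CYR61, stood at 8.59, 8.91 and 8.55 CPM in Tamoxifen organoids, against 122, 158 and 134 CPM in DMSO organoids. The Tamoxifen libraries were close to each other and far below the rest. The log2 change was -4.06 ± 0.18 (SE; adjusted p in edgeR, 1.04e-08), or 16.7-fold lower. Per length, Ccn2, Ankrd1 and Ccn1 were the 3 most abundant of the 10 genes in DMSO organoids, at 295, 127 and 68.1 RPKM. In Tamoxifen organoids Ccn2 averaged 1.99 RPKM, Ankrd1 0.29 RPKM and Ccn1 4.28 RPKM, and Yap1 led the 10 genes there at 25.0 RPKM.

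The targets that act back on the pathway fell as well. Amotl2 (chromosome 9, 102717091 to 102733418, plus strand), a junction protein of the angiomotin family that binds and retains the coactivators, stood at 15.3, 14.4 and 14.7 CPM in Tamoxifen organoids, against 217, 187 and 152 CPM in DMSO organoids. It was 13.1-fold lower, a log2 change of -3.71 (SE 0.20; adjusted p in edgeR, 4.34e-08). Its groups lay far apart.

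Ajuba (chromosome 14, 54567469 to 54577661, minus strand), a LIM protein of cell junctions that restrains the Lats kinases, stood at 27.3, 25.8 and 23.9 CPM in Tamoxifen organoids, against 99.6, 102 and 85.3 CPM in DMSO organoids. It was 3.92-fold lower, a log2 change of -1.97 (SE 0.16; adjusted p in edgeR, 1.71e-06). Its deposited value held a fraction of a read in 11 of the libraries, so some of its reads were shared with other features.

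Lats2 (chromosome 14, 57689662 to 57746212, minus strand), the kinase that phosphorylates Yap1 and Wwtr1 protein, stood at 14.2, 14.6 and 14.3 CPM in Tamoxifen organoids, against 37.2, 29.6 and 30.2 CPM in DMSO organoids. The groups did not overlap, and the change was the smallest among the 6 targets at 2.35-fold lower, a log2 change of -1.23 (SE 0.16; adjusted p in edgeR, 6.59e-05). The loci LOC115485931 and LOC115488359 overlap it on the opposite strand.

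In all, 10 of the 10 genes were called lower in Tamoxifen than in DMSO organoids, at an adjusted p under 0.05. The comparison as a whole called 66.3% of 16449 genes tested, and 32.4% were called lower. The members' median log2 change was -3.17, against 0.02 over all genes tested. The 10 genes' libraries were apart between the groups in 10 cases, as they were for 76.2% of all genes tested. Several epithelial markers moved in the same comparison: Vil1, the gene whose promoter drives the Cre, averaged 1260 CPM in Tamoxifen organoids and 223 CPM in DMSO organoids, Epcam 1650 CPM in Tamoxifen organoids and 482 CPM in DMSO organoids, and Krt18 880 CPM in Tamoxifen organoids and 2590 CPM in DMSO organoids. The 6 macrophage markers summed to 23.7 to 24.7 CPM in Tamoxifen organoids and 237 to 396 CPM in DMSO organoids, nearly all of it Cd14 and Cd68, with Adgre1 at 0 reads in all 9 organoid libraries. The part of these markers in the members' changes was not tested.

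**Figure D2:**
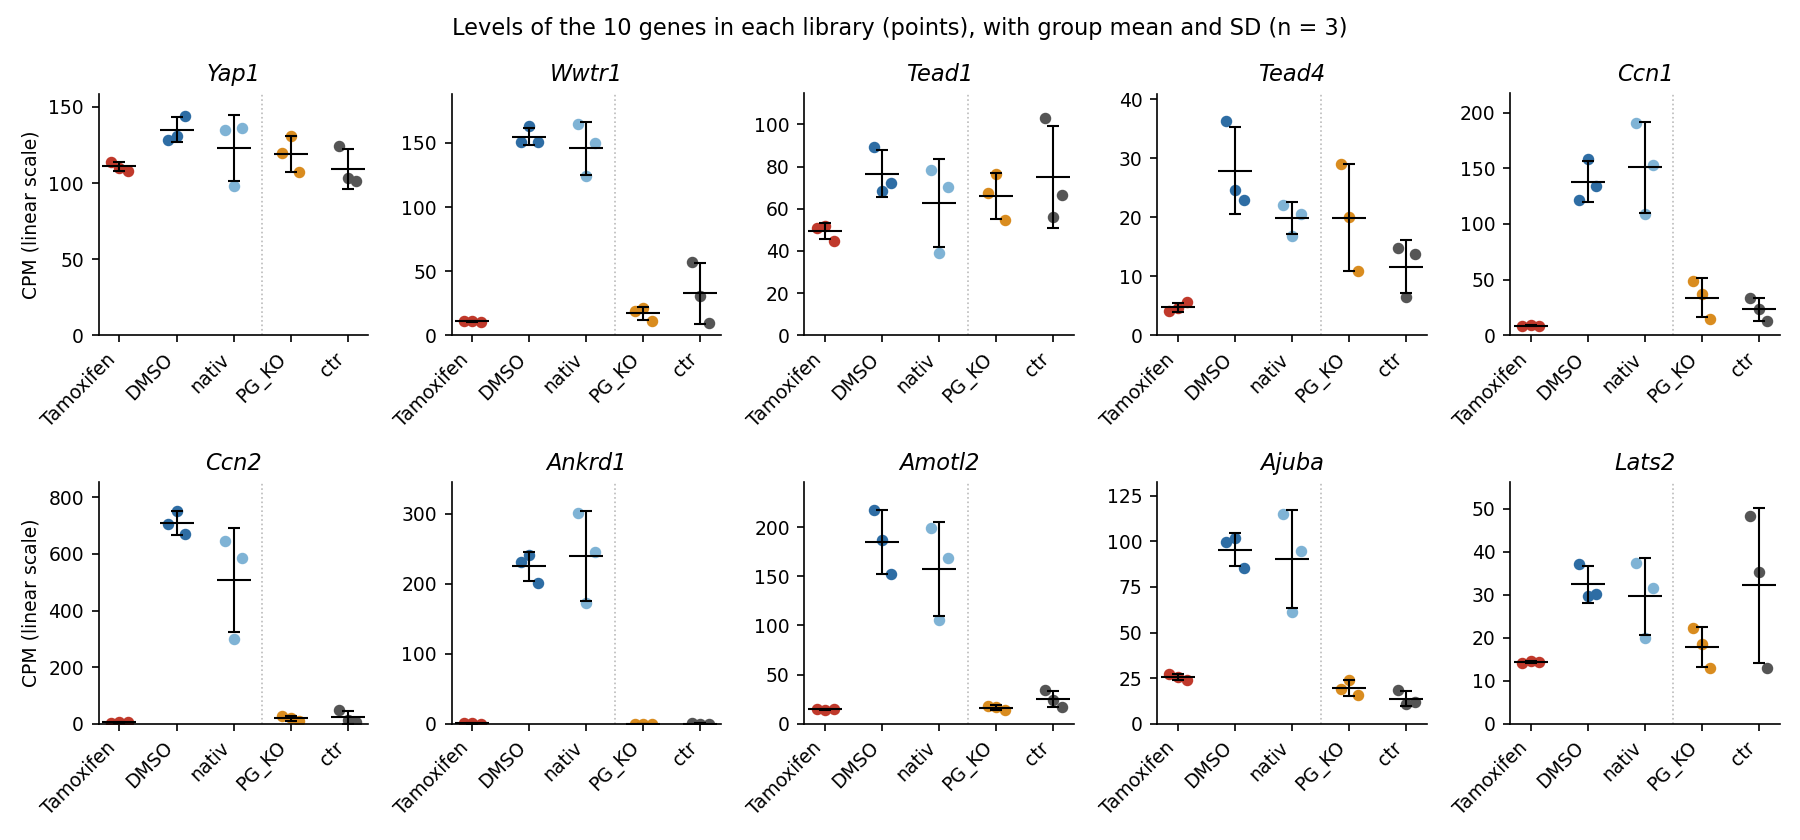
CPM of each of the 10 genes in every library (points), with the group mean (bar) and SD (whiskers, n = 3), on linear axes that start at 0. Panels differ in scale, and the dotted line separates organoids from gut. Wwtr1, Ccn1, Ccn2, Ankrd1, Amotl2 and Ajuba stood high in DMSO and nativ organoids and low in the other 3 groups, while each group of Yap1 and Tead1 overlaps its neighbours in the order of means.

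Against nativ organoids, which share the code of the DMSO organoids, the Tamoxifen organoids had lower levels again. Ccn2 stood at 644, 300 and 584 CPM in nativ organoids and was 114-fold lower in Tamoxifen organoids, a log2 change of -6.83 (edgeR adjusted p = 6.16e-09). Ankrd1, at 302, 172 and 246 CPM in nativ organoids, was 495-fold lower in Tamoxifen organoids, a log2 change of -8.95 (edgeR adjusted p = 1.87e-09). Ccn1 at -4.22, Wwtr1 at -3.85, Amotl2 at -3.51, Tead4 at -2.17, Ajuba at -1.92 and Lats2 at -1.14 followed on the log2 scale, with edgeR adjusted p from 3.65e-10 to 0.000119. These comparisons share the Tamoxifen libraries with those against DMSO, so the values are set side by side and not as separate evidence.

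Yap1 and Tead1 were the weak calls against nativ organoids. Yap1 had a log2 change of -0.26 (SE 0.09; adjusted p in edgeR, 0.0282) and Tead1 of -0.44 ± 0.18 (SE; adjusted p in edgeR, 0.0482), and the nativ libraries, at 135, 98.2 and 136 CPM for Yap1 and 78.4, 39.1 and 70.3 CPM for Tead1, overlapped the Tamoxifen libraries. The call was lost in 7 of 17 alternatives for Yap1 and in 11 of 17 for Tead1, over which the adjusted p ran from 0.00114 to 0.309 for Yap1 and from 0.000326 to 0.187 for Tead1. Without nativ replicate 1 the log2 change of Tead1 was -0.30 (edgeR adjusted p = 0.173), and without nativ replicate 2 it was -0.66 (edgeR adjusted p = 0.000326). Nativ replicate 2 had the lowest CPM of its group for 10 of the 10 genes, as it had for 59.2% of all genes tested.

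All 10 genes passed the threshold against nativ organoids, where 66.9% of genes tested were called and 33.5% were called lower. The members' median log2 change was -2.84, against 0.01 over all genes. The libraries were apart for 8 of the 10 genes and for 74.7% of all genes tested.

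Between DMSO and nativ organoids, which differ by the solvent as far as the labels say, 0 of the 10 genes and 0% of 16449 genes were called by edgeR. At an unadjusted p under 0.05 edgeR gave 1 of the 10 genes and 2408 genes in all, and DESeq2 called 157 genes with 0 members among them. The gene with the smallest p was Tead4, at 36.3, 24.6 and 22.9 CPM in DMSO organoids and 22, 16.8 and 20.6 CPM in nativ organoids, a log2 change of 0.45 (SE 0.17; adjusted p in edgeR, 0.31). Ccn2 had a log2 change of 0.45 (SE 0.21; adjusted p in edgeR, 0.347), and its DMSO libraries lay above all its nativ libraries. Tead4 was at 0.23 without DMSO replicate 1 (edgeR adjusted p = 0.564), and Ccn2 was at 0.23 without nativ replicate 2 (edgeR adjusted p = 0.593). The other 8 genes had log2 changes of -0.16 to 0.26, none of them detectable at this spread between libraries.

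**Figure D3:**
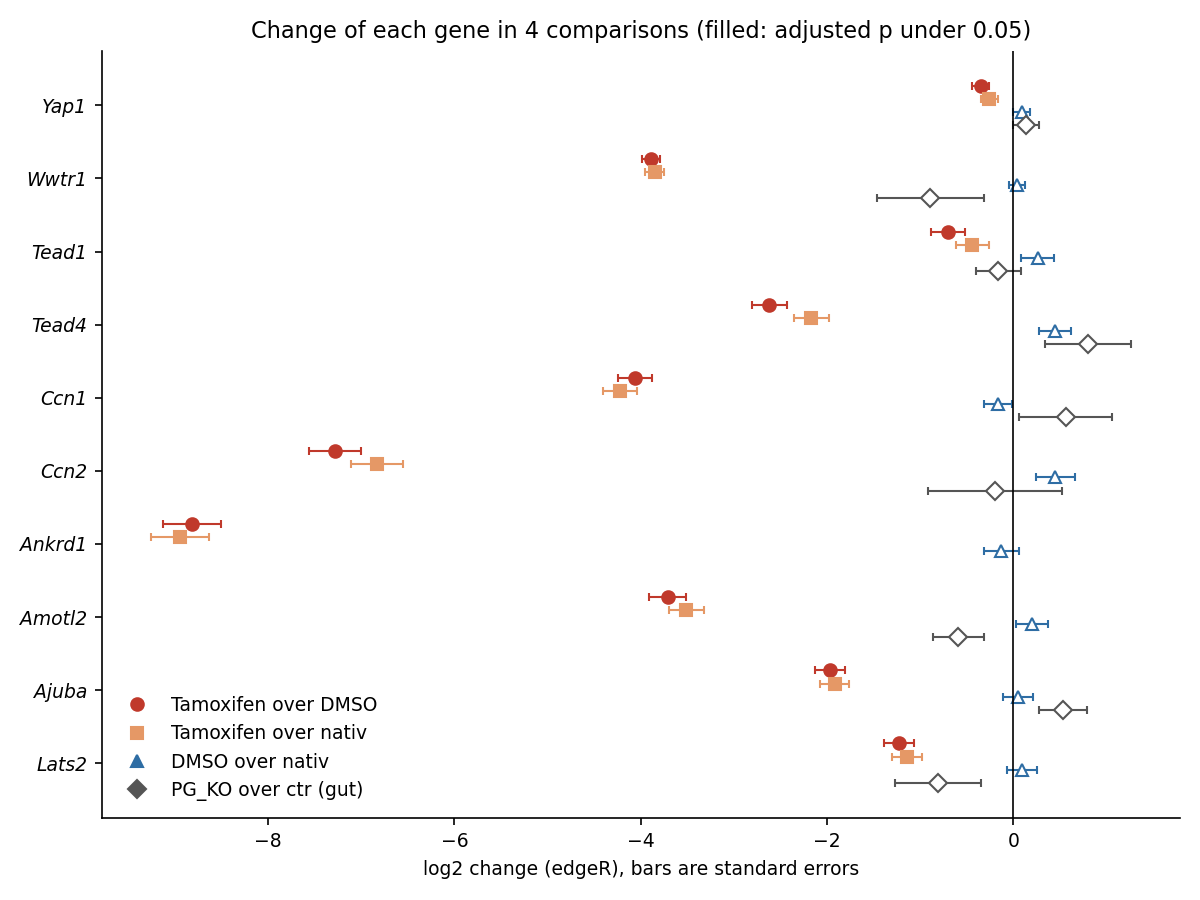
Log2 change of each gene in 4 comparisons from edgeR, with the SE as bars and filled symbols for an adjusted p under 0.05. Tamoxifen organoids were lower than DMSO and nativ organoids for every gene, from -0.26 for Yap1 against nativ to -8.95 for Ankrd1 against nativ, and no symbol is filled for DMSO over nativ or PG_KO over ctr. Ankrd1 was not tested in gut.

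The rest of the pathway was described by 3 lists of genes outside the 10. Like the members, these lists were chosen with earlier results of these data known, so their counts are descriptive. Of 22 Hippo kinases, their cofactors and upstream regulators, 20 were tested in organoids, and in Tamoxifen organoids 4 were called higher and 8 lower than in DMSO, the median log2 change being 0.10 against 0.02 over all genes. Over all genes tested 66.3% were called and 32.4% were called lower, so the share of the list that was called is near that of all genes. The lower ones with the smallest p were Ptpn14, a phosphatase that binds Yap1 protein, at -4.32 ± 0.19, Frmd6, an upstream membrane protein, at -2.71 ± 0.14, Wwc2, a scaffold of the KIBRA family, at -2.20 ± 0.14, and Amotl1, a relative of Amotl2, at -3.72 ± 0.25 (log2 change ± SE), with edgeR adjusted p from 1.21e-08 to 2.99e-07. The higher ones were Mob1b, a Lats cofactor, at 0.42 ± 0.09, Nf2, the upstream protein merlin, at 0.42 ± 0.12, Fat1, a giant cadherin, at 0.70 ± 0.21, and Stk3, the kinase MST2, at 0.36 ± 0.13, with edgeR adjusted p from 0.00196 to 0.0276. The kinases Stk4 and Lats1 did not pass the test. Against nativ organoids 6 of the 20 were called higher and 8 lower, beside 66.9% of all genes called in either direction.

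Of 6 other TEAD factors and Vgll cofactors, which compete for TEAD proteins, 4 were tested. Tead2 was lower in Tamoxifen organoids, by a log2 change of -2.24 ± 0.16 (SE) against DMSO, where the edgeR adjusted p was 5.06e-07. Vgll3 was called higher against DMSO at 0.88 ± 0.33 (SE; adjusted p in edgeR, 0.0344), and against nativ it had a log2 change of -0.27 (edgeR adjusted p = 0.447). It had few reads, 117 over the Tamoxifen libraries and 59 over the DMSO libraries. Tead3 and Vgll4 did not pass the test, and Vgll1 and Vgll2 had 0 reads in all 15 libraries. The median was -0.17 on the log2 scale.

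Of 16 further genes picked from published YAP and TAZ target signatures, 15 were tested, and in Tamoxifen organoids 12 were called lower and 3 higher than in DMSO. Their median log2 change was -2.19, against 0.02 over all genes tested, of which 66.3% were called and 32.4% were called lower. As the list was chosen with earlier results known, it is no independent test of the members' changes. The lower ones with the smallest p were Rbms3, an RNA-binding protein, at -7.46 ± 0.23, Fjx1 at -4.77 ± 0.19, and Myof, a membrane repair protein, at -4.96 ± 0.23 (log2 change ± SE), with edgeR adjusted p from 7.85e-10 to 1.74e-08. The higher ones were Dock5 at 1.40 ± 0.13 (edgeR adjusted p = 4.09e-06), F3, the coagulation starter tissue factor, at 0.85 ± 0.18 (edgeR adjusted p = 0.00145), and Nt5e at 1.35 ± 0.31 (edgeR adjusted p = 0.00283). Nt5e had few reads in organoids, 78 over the Tamoxifen libraries and 28 over the DMSO libraries. Against nativ organoids 11 were called lower and 1 higher, where 33.5% of all genes were called lower, and F3 and Nt5e did not pass the test, with edgeR adjusted p of 0.213 for F3 and 0.499 for Nt5e.

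**Figure D4:**
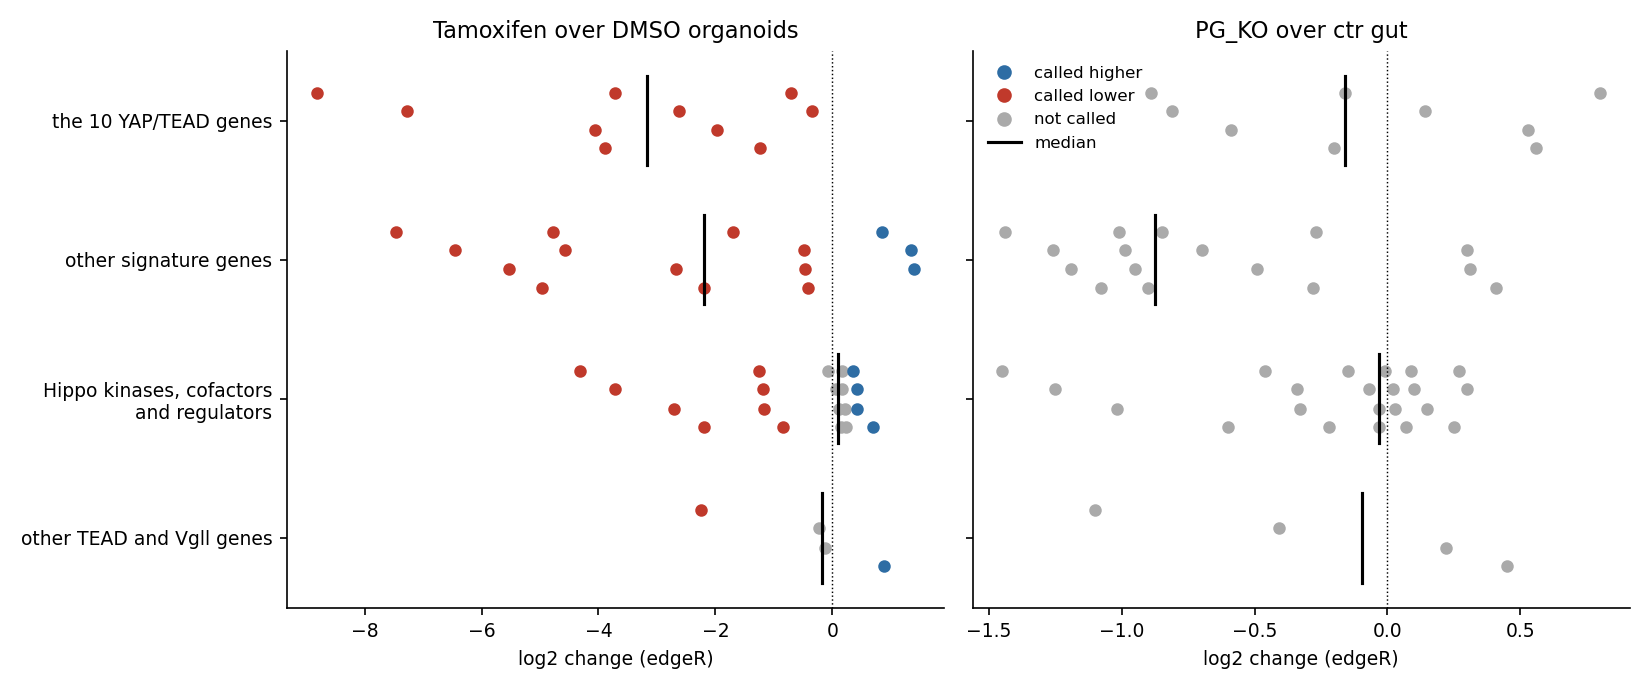
Log2 change (edgeR) of every tested gene of the 10 members and of the 3 other lists, for Tamoxifen over DMSO organoids (left) and PG_KO over ctr gut (right, on a narrower axis). Colours mark calls at an adjusted p under 0.05 and black bars mark medians: the members' median was -3.17 in organoids and -0.16 in gut, where every point is grey.

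In gut the 10 genes showed no call between PG_KO and ctr. Of the 9 genes tested, 0 were called by edgeR and 0 had an unadjusted p under 0.05, and of all 18043 genes tested 0% were called, with 2705 at an unadjusted p under 0.05. DESeq2 called 458 genes and 0 of the members. Jup itself, whose libraries did not overlap, had a log2 change of -2.29 ± 0.23 (SE) and an edgeR adjusted p of 0.163, so a change of that size did not pass in this comparison. Ankrd1 did not pass the filter on low counts, with 6, 3 and 1 reads in PG_KO libraries and 23, 1 and 0 reads in ctr libraries. The libraries overlapped for 10 of the 10 genes and were apart for 18.6% of all genes tested.

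Yap1 stood at 120, 131 and 107 CPM in PG_KO libraries, against 124, 103 and 101 CPM in ctr libraries, a log2 change of 0.14 (SE 0.14; adjusted p in edgeR, 0.589). Wwtr1 stood at 19.2, 20.9 and 11.3 CPM in PG_KO libraries, against 57.3, 31 and 9.83 CPM in ctr libraries, a log2 change of -0.89 (SE 0.57; adjusted p in edgeR, 0.437). The ctr libraries spanned a wider range than the PG_KO libraries and enclosed it. Tead4 stood at 29.0, 20.0 and 10.8 CPM in PG_KO libraries, against 14.7, 6.51 and 13.7 CPM in ctr libraries, a log2 change of 0.80 (SE 0.46; adjusted p in edgeR, 0.395). Tead1 had a log2 change of -0.16 (SE 0.24; adjusted p in edgeR, 0.724).

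Among the secreted targets, Ccn1 stood at 49.1, 37.5 and 14.7 CPM in PG_KO libraries, against 33.5, 23.9 and 13.0 CPM in ctr libraries, a log2 change of 0.56 (SE 0.50; adjusted p in edgeR, 0.55). Ccn2 stood at 27.8, 20.7 and 9.54 CPM in PG_KO libraries, against 48.6, 14.2 and 6.81 CPM in ctr libraries, a log2 change of -0.20 (SE 0.72; adjusted p in edgeR, 0.893). A single ctr library lay above all PG_KO libraries, and without that library, ctr replicate 1, the log2 change of Ccn2 was 0.88 (edgeR adjusted p = 0.717).

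Of the genes that act back on the pathway, Amotl2 stood at 18.5, 16.8 and 13.8 CPM in PG_KO libraries, against 34.2, 23.8 and 17.2 CPM in ctr libraries, a log2 change of -0.59 (SE 0.27; adjusted p in edgeR, 0.347). Ajuba had a log2 change of 0.53 (SE 0.26; adjusted p in edgeR, 0.357). Lats2 stood at 22.2, 18.6 and 12.9 CPM in PG_KO libraries, against 48.4, 35.2 and 12.9 CPM in ctr libraries, a log2 change of -0.81 (SE 0.46; adjusted p in edgeR, 0.395). Single libraries moved the gut values. Without PG_KO replicate 1 the log2 change of Ccn1 was 0.16 and that of Tead4 0.40, and without PG_KO replicate 3 that of Ccn1 was 0.94. Without ctr replicate 1 the log2 change of Amotl2 was -0.33 and that of Ccn1 0.88. Likewise, without ctr replicate 1 the log2 change of Wwtr1 was -0.25 and that of Lats2 -0.43, and without ctr replicate 3 they were -1.28 for Wwtr1 (edgeR adjusted p = 0.0718) and -1.14 for Lats2 (edgeR adjusted p = 0.0596).

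Library ranks were shared across the members in gut. PG_KO replicate 3 had the lowest CPM of its group for 10 of the 10 genes, as it had for 27.1% of all genes tested, and ctr replicate 1 had the highest of its group for 10 of the 10 genes, as it had for 46.0% of all genes tested. Markers of other cell types also had unequal sums across the gut libraries. The 6 fibroblast markers summed to 1270, 1370 and 629 CPM in PG_KO libraries, against 3630, 2160 and 919 CPM in ctr libraries. The 6 smooth muscle markers summed to 598, 879 and 1150 CPM in PG_KO libraries, against 4260, 3380 and 657 CPM in ctr libraries. Each of these markers averaged at least 1 CPM in either group. The endothelial markers summed to 54.4, 95.2 and 32.1 CPM in PG_KO libraries, against 240, 145 and 47.6 CPM in ctr libraries. Ctr replicate 1 had the highest sum for all 3 of these cell types. PG_KO replicate 3 had the lowest fibroblast and endothelial sums of its group but the highest smooth muscle sum. The 6 epithelial markers summed to 14200, 11200 and 13200 CPM in PG_KO libraries, against 7070, 8090 and 11400 CPM in ctr libraries. The part of other cell types in the members' levels was not tested, and in bulk tissue fewer cells of a type and less RNA per cell cannot be told apart.

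**Figure D5:**
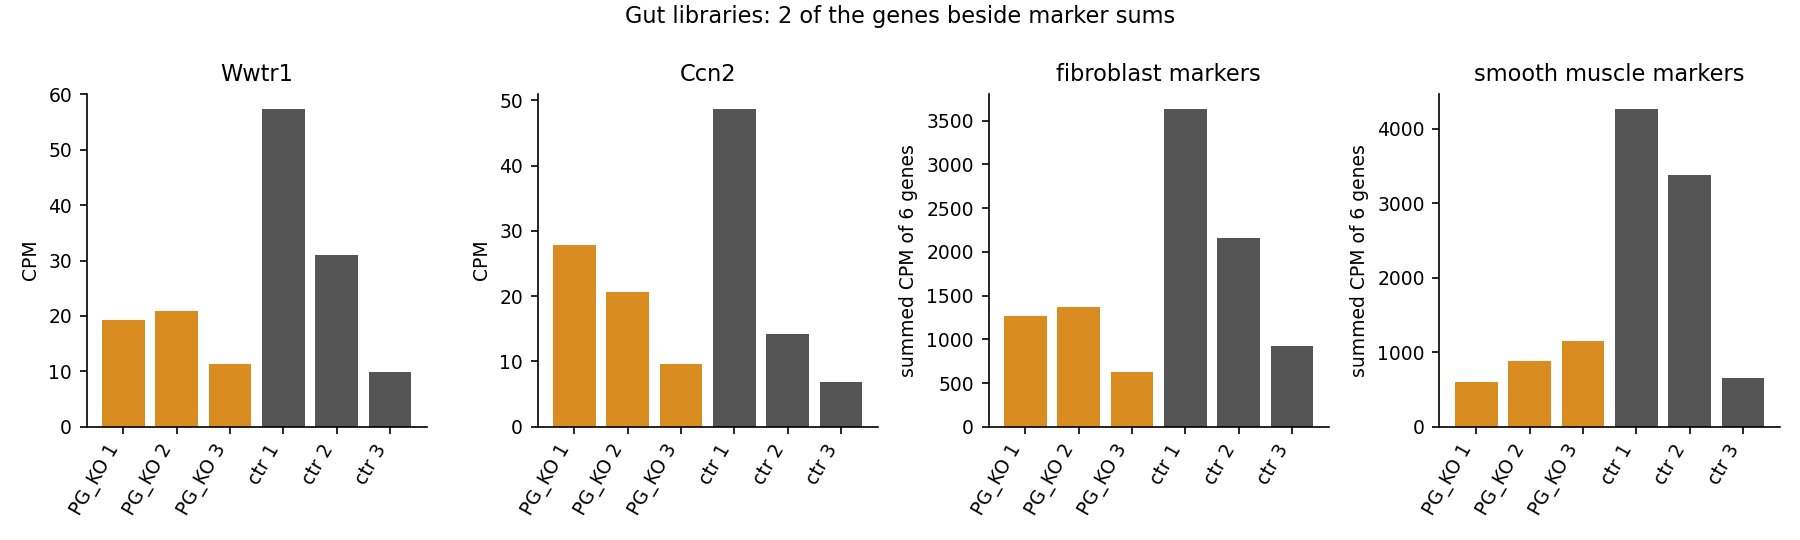
CPM of Wwtr1 and Ccn2 and the summed CPM of 6 fibroblast and 6 smooth muscle markers in each gut library, as bars from 0. Ctr 1 is the highest library in all 4 panels, at 57.3 CPM for Wwtr1 and 48.6 CPM for Ccn2.

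The other lists gave 0 calls in gut as well. The median log2 change was -0.03 for the 22 Hippo genes, -0.09 for the 4 other TEAD and Vgll genes tested and -0.88 for the 16 signature genes, against -0.03 over all genes tested. Among the signature genes the smallest p belonged to Nt5e, Foxf2 and Crim1, at log2 changes of -0.85, -1.19 and -0.70 and edgeR adjusted p of 0.33, 0.333 and 0.349. Fat4, a cadherin that binds Dchs1 across cell contacts, had a log2 change of -1.45 (SE 0.51; adjusted p in edgeR, 0.33). On the same scale Dchs1 was at -1.25 ± 0.49 (SE; adjusted p in edgeR, 0.33) and Fat1 at -0.33 ± 0.15 (SE; adjusted p in edgeR, 0.337). Tead3 was at -0.41, Vgll3 at -1.10 and Tead2 at 0.45, with edgeR adjusted p of 0.368, 0.403 and 0.59. Fat4, Dchs1 and Foxf2 averaged at most 0.378 CPM in any organoid group. In gut they were highest in ctr replicate 1, at 22.1, 22.3 and 25.6 CPM, whereas Nt5e was highest in ctr replicate 3, at 289 CPM. The part of other cell types in the levels of these lists was not tested.

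Whether the change in gut differed from that in organoids was tested as the log2 change of PG_KO over ctr minus that of Tamoxifen over DMSO, in 1 edgeR fit of 12 libraries. The difference passed the threshold for 7 of the 9 genes that could be tested in gut, all with positive values. Of all 19141 genes tested 36.4% passed, 3002 with positive and 3956 with negative values, and the median difference over all genes was -0.14. Ankrd1 entered this fit through its reads in DMSO organoids alone, with too few in gut to measure a change there, so its fitted difference says nothing about gut. It was 7.01 ± 0.91 (SE) for Ccn2 (edgeR adjusted p = 0.000175), 4.57 ± 0.61 for Ccn1 (edgeR adjusted p = 0.000216) and 3.06 ± 0.33 for Amotl2 (edgeR adjusted p = 4.73e-05). For Tead1 it was 0.49 ± 0.29 (edgeR adjusted p = 0.216) and for Lats2 0.36 ± 0.53 (edgeR adjusted p = 0.649), where a difference was not detected. The Tead1 difference passed in 3 alternatives, at 0.84 without ctr replicate 1 (edgeR adjusted p = 0.0137), 0.75 without PG_KO replicate 3 (edgeR adjusted p = 0.0488) and 0.98 without both (edgeR adjusted p = 0.00299). The Lats2 difference ran from 0.12 without PG_KO replicate 1 to 0.85 without ctr replicate 1 and 1.06 without ctr replicate 1 and PG_KO replicate 3, with edgeR adjusted p of 0.934, 0.182 and 0.0918. Levels in gut and organoids come from separate tables scaled alike by library totals, and they were not tested against each other: Ccn2 averaged 19.3 ± 9.19 CPM in PG_KO gut and 23.2 ± 22.3 CPM in ctr gut, 4.77 ± 0.88 CPM in Tamoxifen organoids and 709 ± 41.9 CPM in DMSO organoids (SD, n = 3 each). Tissue, culture and the unsettled DSS label separate these tables and cannot be told apart.

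Ordered by mean CPM, neighbouring groups overlapped throughout for Yap1, Tead1 and Lats2. For Wwtr1 and Amotl2 the order broke between nativ organoids and ctr gut, for Ajuba between nativ and Tamoxifen organoids and for Ankrd1 between DMSO and Tamoxifen organoids. Tead4 broke between nativ organoids and ctr gut, and Ccn1 between DMSO organoids and PG_KO gut. Both also broke between ctr gut and Tamoxifen organoids. Ccn2 separated most, with DMSO above nativ organoids, nativ organoids above ctr gut and PG_KO gut above Tamoxifen organoids with no overlap.

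The genes whose pattern was nearest to a member's were found by the root mean square distance of log2(CPM + 1) over the 15 libraries, centred within each table, among 14076 genes. Wwtr1 was closest to Shc2, Ift57 and Pcbp3, at 0.19, 0.21 and 0.22, against a median distance of 1.48. Ccn2 was closest to Basp1, Rab11fip5 and Enah, at 0.39, 0.39 and 0.40, against a median of 2.56. Ccn1 was closest to Serpinb8, Icam1 and Clic4, at 0.30, 0.32 and 0.34, against a median of 1.55, and Yap1 to Sept2, Ankle2 and Fxr2, at 0.07, 0.08 and 0.08, against a median of 0.38. These distances are descriptions over libraries that share groups.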

How the data were processed

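Poly(A) RNA of 9 organoid and 6 gut libraries was sequenced. Per the submitters' processing notes, reads were handled with STAR 2.7.2b, cutadapt 2.5, bcl2fastq 2.20.0.422, DESeq2 and featureCounts 1.6.4, on GRCm38.p6; strand setting and filters are not given in the sources used here. The deposited tables hold expected counts per gene, 1 table for organoids and 1 for gut, not scaled between libraries. Between 10.39% and 13.69% of a library's values were not whole, and values were rounded to whole reads before fitting. Replicates of a group differed by more than sampling noise. Chi-square over degrees of freedom ran from 2.13 to 3.52 in Tamoxifen, 27.6 to 53.6 in DMSO and 7.54 to 97.6 in nativ organoids. In gut it ran from 48.2 to 87.0 in PG_KO and 72.8 to 187 in ctr libraries. The organoid groups shared 1 estimate of the spread in the fit, although their replicates differed unequally.

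Groups follow the descriptions, with which the gut titles conflict. CPM are deposited reads over library totals, and RPKM divide CPM by the deposited exon length. Tests were made with edgeR 4.0.16 in R 4.3.3 (glmQLFTest after a robust glmQLFit, TMM factors, filterByExpr), with p adjusted by Benjamini-Hochberg over every gene tested and a threshold of 0.05, in 1 fit of 9 organoid libraries, 1 of 6 gut libraries and 1 of 12 libraries for the difference. SEs are the log2 change over the square root of F. Alternatives were DESeq2 1.42.0, voom in limma 3.58.1, RLE factors, library totals, other filters, a replicate block, the 6 compared libraries alone, nativ in place of DMSO in the difference, and leaving out libraries. Leaving out ctr replicate 1 together with PG_KO replicate 3 in the difference was chosen after seeing the data. The fits were tested on simulated data. The members and the lists were chosen with earlier results of these data known. Genes named from the lists were the 4 called in each direction with the smallest p, and in gut the 3 with the smallest p. The values of 1 gene so chosen are not reported here. Figures used matplotlib 3.10.9 in Python 3.11.15.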

Additional observations from a re-analysis of the deposited data

Results flagged for a closer look

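The change between PG_KO and ctr gut differed from that between Tamoxifen and DMSO organoids for 7 of the 9 genes that could be tested in gut, by the edgeR test of the difference over 12 libraries. Over all genes the same test called 36.4% of 19141, 3002 with positive and 3956 with negative values. The difference on the log2 scale was 7.01 for Ccn2 (adjusted p = 0.000175), 4.57 for Ccn1 (adjusted p = 0.000216), 3.38 for Tead4 (adjusted p = 0.000824), 3.06 for Amotl2 (adjusted p = 4.73e-05), 2.93 for Wwtr1 (adjusted p = 0.00552), 2.44 for Ajuba (adjusted p = 9.11e-05) and 0.44 for Yap1 (adjusted p = 0.0477). Ankrd1 was also called, at 7.48 (adjusted p = 0.00745), but it had 6, 3 and 1 reads in PG_KO libraries and 23, 1 and 0 reads in ctr libraries, failed the low-count filter in gut and entered the fit through DMSO organoids, so the value is no measurement of a gut change. It was 6.75 without PG_KO replicate 1 (adjusted p = 0.0829), 11.18 without ctr replicate 1 and 11.66 without ctr replicate 1 and PG_KO replicate 3. The Yap1 call was lost in 7 of 17 alternatives, over which its adjusted p ran from 0.00248 to 0.102.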

How the results depend on the processing

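For Wwtr1, Tead4, Ccn1, Ccn2, Ankrd1, Amotl2, Ajuba and Lats2, direction and call held in all 17 alternatives for Tamoxifen against DMSO and against nativ. The members called numbered 9 to 10 against DMSO, 8 to 10 against nativ, 6 to 9 for the difference between gut and organoids (Ankrd1 included), and 0 for DMSO against nativ and for PG_KO against ctr. Over all genes, DMSO against nativ gave 0 calls in edgeR, 157 in DESeq2, 2 without a low-count filter and 0 to 1 when a library was left out. PG_KO against ctr gave 0 calls in edgeR, 458 in DESeq2, 5 without the filter and 0 to 1478 when a library was left out, with 1478 without ctr replicate 3. Uncalled log2 changes turned sign in places, and the cause was not tested. For DMSO over nativ, the values with a library left out ran from -0.03 to 0.09 for Wwtr1, -0.30 to 0 for Ccn1, -0.26 to 0.03 for Ankrd1, -0.11 to 0.22 for Ajuba (-0.03 without DMSO replicate 2) and -0.07 to 0.26 for Lats2 (0 without DMSO replicate 1). For PG_KO over ctr, Ccn2 was 0 in voom, 0.08 with the replicate block, 0.88 without ctr replicate 1, 0.14 without PG_KO replicate 3 and 1.21 without both, with a range of -0.59 to 1.21, and Tead1 was 0.09 without ctr replicate 1 and 0.22 without both, with a range of -0.30 to 0.22. Library totals shifted the median of all genes for Tamoxifen over nativ to 0.13, and Yap1 was then at -0.16 (adjusted p = 0.309).

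Samples with the same replicate number correlated at -0.12 to 0.19 in organoids, with 4 of 18 checks best with their own number. In gut they correlated at -0.18 to 0.29, with 3 of 6 checks best with their own number. The numbers were therefore not used as pairs, though 6 checks are too few to exclude a pairing in gut. With the replicate block edgeR called 10823 genes against DMSO (10907 without it), 10838 against nativ (11012), 0 in the other comparisons, and 6062 for the difference (6958), with 10, 10, 0, 0 and 7 members. The 7 members of the difference include Ankrd1, and counted that way 8 were called without the block. With 3 libraries a group and 3 reads as a floor, a change of Ankrd1 in gut cannot be measured, so its difference from organoids is not read as one.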
